A study of Mus musculus with 2 samples.

Results

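The genes described here are 9 channels and transporters that move salt and water across the epithelium of the airways and the alveoli. They are the sodium channel subunits Scnn1a, Scnn1b and Scnn1g, the chloride channels Cftr and Ano1, the sodium pump subunit Atp1b1 and the water channels Aqp1, Aqp4 and Aqp5. Every array probe outside the control spots whose RefSeq accession maps to one of these symbols was taken, which gave 11 probes of 55681, for 9 genes of 20660 with a name. Aqp4 and Aqp5 had 2 probes each and the other genes had 1, and each probe was printed at 1 spot. Ano1 is the gene once called Tmem16a.

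The study compared RNA of lung epithelial cells labelled Mob1DKO with RNA of lung epithelial cells labelled wild type (WT). The mice of both groups were C57BL/6 and 10 weeks old, and each group holds 1 array. The labels do not spell out Mob1DKO, which is taken to mean that Mob1a and Mob1b are both lost, on the basis of what is known of the line. These genes encode adaptor proteins of the Hippo pathway that activate the kinases LATS1 and LATS2. How and in which cells the genes were deleted, how the cells were isolated, and whether animals were pooled: the labels used here do not say. Without replicates, a difference has a size and a technical error but no test, and the precision is limited by the number of arrays.

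Levels are log2 of the background-subtracted signal minus the 75th percentile of that array. This percentile was a signal of 291 for Mob1DKO and 155 for WT. Differences are Mob1DKO minus WT on this scale. The 2-fold rule calls a gene where its levels differ by at least that much and the brighter one is flagged by the scanner software as well above background. All 8 pan-epithelial marker genes were well above background on both arrays, with a median difference of 0.02, or 0.23 under normexp. Among them, named for their roles after their values were seen, Epcam, which marks epithelial cells, differed by 0.18 and Nkx2-1, the lung epithelial transcription factor, by −0.01. Of the targeted genes, Mob1b was lower on the Mob1DKO array, at −2.98 against −0.98, and differed by −1.13 under normexp. The Mob1a probe was faint, at −2.49 for Mob1DKO and −2.56 for WT, and differed by 0.07, or −0.42 under normexp. The labels do not tell whether the Mob1a probe lies in a deleted part. On the Mob1DKO array Xist was 4.90-fold lower and the Y-linked Ddx3y at least 22.7-fold higher, so the sex of the animals and the genotype cannot be told apart.

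The fluid that lines the lung is set by ion transport. The epithelial sodium channel, built of alpha, beta and gamma subunits encoded by Scnn1a, Scnn1b and Scnn1g, lets sodium enter the cell at its luminal face. The sodium pump, whose beta subunit is Atp1b1, then drives sodium out at the opposite face, and water follows. CFTR, the channel mutated in cystic fibrosis, and the calcium-activated channel ANO1 carry chloride, and CFTR also bicarbonate, in the secretory direction. Aquaporins are the pores for water: Aqp5 is known for the luminal membrane of alveolar type 1 cells and gland cells, Aqp4 for the basolateral membrane of airway epithelium, and Aqp1 for the endothelium and red cells.

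Among the 9 genes, 8 had a signal well above background on each array, and Scnn1g had one on neither. Cftr was higher on the Mob1DKO array by 2.11-fold and was the 1 measured member that passed the 2-fold rule, and none was lower. Among all 15099 measured genes, 3.79% were called higher and 2.91% lower on the Mob1DKO array, so 1 call in 8 genes is not read as a result about the group. The other 7 members differed by −0.26 (Aqp1) to 0.28 (Aqp5). Of the 8 measured members 6 had a difference above 0, as had 51.8% of the genes measured on both arrays. With a 1.5-fold threshold Cftr was again the 1 member called, beside 8.08% of all genes called higher. The median of the 8 members was 0.08, beside 0.01 for the 13866 genes measured on both arrays, whose middle 50% lay between −0.18 and 0.19. In RNA of a whole preparation, fewer cells of a type and less RNA per cell cannot be told apart.

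**Figure D1:**
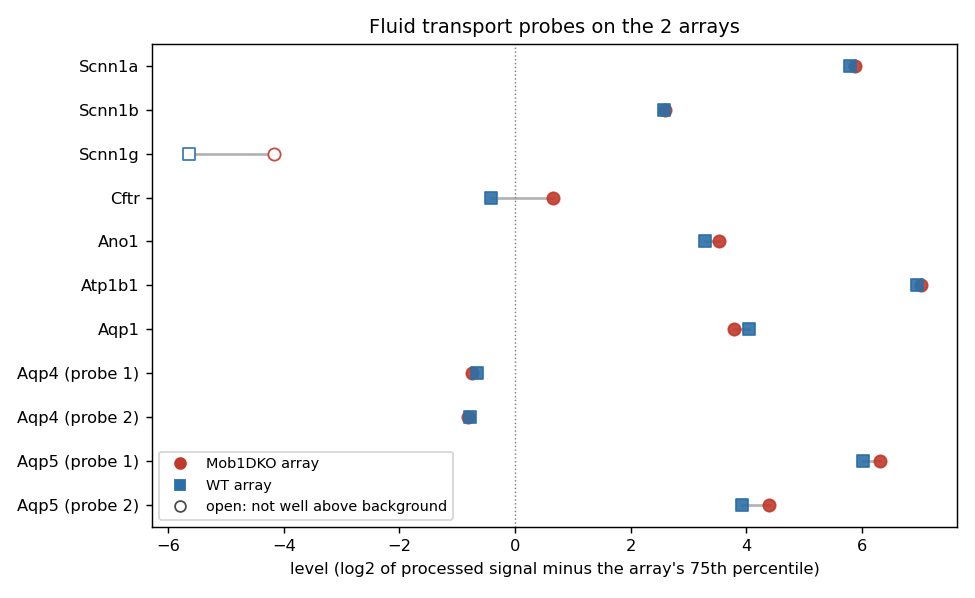
Level of each of the 11 probes on the Mob1DKO array (circles) and the WT array (squares), in log2 units relative to the 75th percentile of that array. Levels of different probes cannot be set against each other. The Cftr pair is spread from −0.42 to 0.66, the other pairs well above background lie closer together, and the open Scnn1g symbols are not well above background.

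The Cftr probe gave a processed signal of 459 for Mob1DKO and 116 for WT. Its spot had a median brightness of 512 against a local background of 67 on the first array, and of 190 against 66 on the second. After scaling, the levels were 0.66 and −0.42, a difference of 1.08. The WT value is the low one of the pair, and it is still well above background. Probes printed at 10 spots whose mean level lay within 1 of that of Cftr gave a spot-to-spot SD of 0.13 for such a difference (64 probes), and the scanner software's own error estimate gave 0.21. Both cover the spot and leave out animals and RNA preparations. Of the genes measured on both arrays, 99.0% had a lower difference than Cftr. Among 1986 genes within 0.5 of its mean level, 1.31% were at least 2-fold higher on the Mob1DKO array. When the median spot brightness was background-corrected with normexp, a model-based method, and an offset of 50, the difference was 0.76, which is under 2-fold. An offset added on both arrays draws the ratio of a faint signal toward 1, so a smaller value was partly built in. In the other 13 settings tried the Cftr difference stayed past 2-fold, but many of these could not move it. The background filters, the floor, the removal of outlier spots and the probe rules left its 1 probe at 1.08. Median, housekeeping, quantile and loess scaling gave 1.06 to 1.23, and no scaling, which shifts every gene alike, gave 1.99.

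Ionocytes, a rare airway cell type known for high Cftr, have the defining transcription factor Foxi1. That gene, named for this role and after its value was seen, was faint, at −2.39 for Mob1DKO and −2.40 for WT, which differ by 0.01. Of 8 ionocyte genes, 6 were measured, and 1 of them was called, the proton pump subunit Atp6v1g3. Only its Mob1DKO signal was well above background, and it was higher there by at least 2.75-fold. Under normexp it differed by 0.03. The ionocyte median was 0.27, or −0.02 under normexp, and the summed level of the list was 4.36 and 4.13. The brightest member, the proton pump subunit Atp6v1c2, differed by 0.20. The largest difference measured on both arrays was that of the transcription factor Dmrt2, at 0.86, or 0.22 under normexp. The part of ionocytes in the Cftr difference was not tested.

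Cftr, Aqp5 and Aqp1, the called member and the highest and lowest of the others, are shown with the 250 bases before their transcription starts, from RefSeq on build GRCm38.p6. Capitals mark the GC box GGGCGG (bound by SP1-family factors) on either strand. The windows are chr6:18170437-18170686 for Cftr, chr15:99590778-99591027 for Aqp5 and chr6:55336049-55336298 for Aqp1, all on the plus strand and written 5′ to 3′.
Cftr: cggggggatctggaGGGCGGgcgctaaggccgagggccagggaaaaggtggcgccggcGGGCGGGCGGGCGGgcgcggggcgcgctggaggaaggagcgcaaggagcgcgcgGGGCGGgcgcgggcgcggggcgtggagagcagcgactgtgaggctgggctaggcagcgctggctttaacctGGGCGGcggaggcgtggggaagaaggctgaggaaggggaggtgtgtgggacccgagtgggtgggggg
Aqp5: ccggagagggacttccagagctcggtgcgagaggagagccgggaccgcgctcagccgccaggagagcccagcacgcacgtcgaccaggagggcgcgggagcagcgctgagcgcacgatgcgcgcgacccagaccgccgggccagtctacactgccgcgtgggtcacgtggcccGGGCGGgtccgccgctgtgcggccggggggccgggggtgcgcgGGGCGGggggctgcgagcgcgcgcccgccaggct
Aqp1: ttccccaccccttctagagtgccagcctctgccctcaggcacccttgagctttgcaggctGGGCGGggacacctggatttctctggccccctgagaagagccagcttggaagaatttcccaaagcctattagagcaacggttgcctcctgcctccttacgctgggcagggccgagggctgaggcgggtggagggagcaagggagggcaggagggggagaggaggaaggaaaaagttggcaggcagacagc
The Cftr window held 6 GC boxes, some of which overlap, the Aqp5 window 2 and the Aqp1 window 1. Their GC contents were 76.4%, 78.4% and 62%, beside a median of 52.4% over 32817 promoter windows of the same length. Promoter windows of 7 members were searched. Scnn1a had no promoter entry, and Aqp4 was left out of the search, so nothing is said about its window. All 7 windows searched held a GC box, which 32.7% of all windows hold. GGAATG, the core of the motif of TEAD factors through which YAP acts, was in none of the 7 on either strand and in 12.6% of all windows. CCAAT was in the Atp1b1 window alone and in 33.8% of all, and TATAAA in none of the 7 and in 12.4% of all. These matches describe letters in a window and not binding.

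Ano1 had a processed signal of 3371 for Mob1DKO and 1512 for WT, which gave levels of 3.53 and 3.29. The difference of 0.25 was larger than the spot-to-spot SD of 0.06 and the software's error of 0.20. It ranged from 0.21 to 0.36 relative to the median of all genes over the 14 other settings. Ano1 is also known for smooth muscle, and smooth muscle and pericyte genes are given beside it. Of 8 such genes 7 were measured, 6 of them below 0, with a median of −0.92 and a summed level of 4.63 and 5.54. The pericyte proteoglycan Cspg4 was 2.57-fold lower (under 2-fold in the normexp setting), and the contractile genes Tagln and Acta2 each differed by −0.97. The 1 measured gene above 0, the smooth muscle myosin Myh11, named after its value was seen, differed by 0.06. The part of these cells in the Ano1 value was not tested.

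The sodium channel subunits that could be measured differed little. Scnn1a, the alpha subunit, had a signal of 17162 for Mob1DKO and 8581 for WT, or levels of 5.88 and 5.79. Its difference of 0.09 lay within the software's error of 0.20 and was 1.64 times the spot-to-spot SD of 0.05 (11 probes). Scnn1b, the beta subunit, had signals of 1749 and 924 and levels of 2.59 and 2.58. Its difference of 0.01 lay within the spot-to-spot SD of 0.07, and over the 14 other settings it ran from −0.03 to 0.23 once the median of all genes was subtracted. The gamma subunit probe, Scnn1g, gave signals of 16.1 and 3.10, below the mark for well above background on both arrays, so no fold is given. Scnn1g and Scnn1b are adjacent on chromosome 7 with no protein-coding gene between them in the RefSeq table, and of the pair only Scnn1b was measured.

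None of the 18 measured genes of 20 sodium channel regulators passed the 2-fold rule. Their median was 0.04 (0.25 under normexp), with 10 above 0 and 8 below, and their differences ran from −0.72 to 0.43. The brightest, Bpifa1, which encodes the secreted airway protein SPLUNC1 that inhibits the channel, differed by −0.72, at levels of 8.30 and 9.02. Sgk1, a kinase that raises the channel at the cell surface, differed by 0.28, at levels of 5.23 and 4.95. The ubiquitin ligase Nedd4l, which removes the channel from the membrane and was named after its value was seen, differed by 0.02.

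Atp1b1 had a signal of 37780 for Mob1DKO and 19123 for WT. The levels of 7.02 and 6.95 differed by 0.07, which was within the software's error of 0.20, and only 3 probes printed at 10 spots lay near this level, too few for a spot-to-spot SD. Of 13 other pump subunits and FXYD proteins, 10 were measured, none was higher and 2 were lower. The called genes were Fxyd2, a pump regulator, at 2.31-fold lower, and Fxyd3, at 2.02-fold lower. Both were under 2-fold in the normexp setting, at −0.86 and −0.80, and a second Fxyd2 probe differed by −0.79. The list median was −0.22, with 7 genes below 0. Measured against the median of all genes, it stayed between −0.25 and −0.17 over the other settings.

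**Figure D2:**
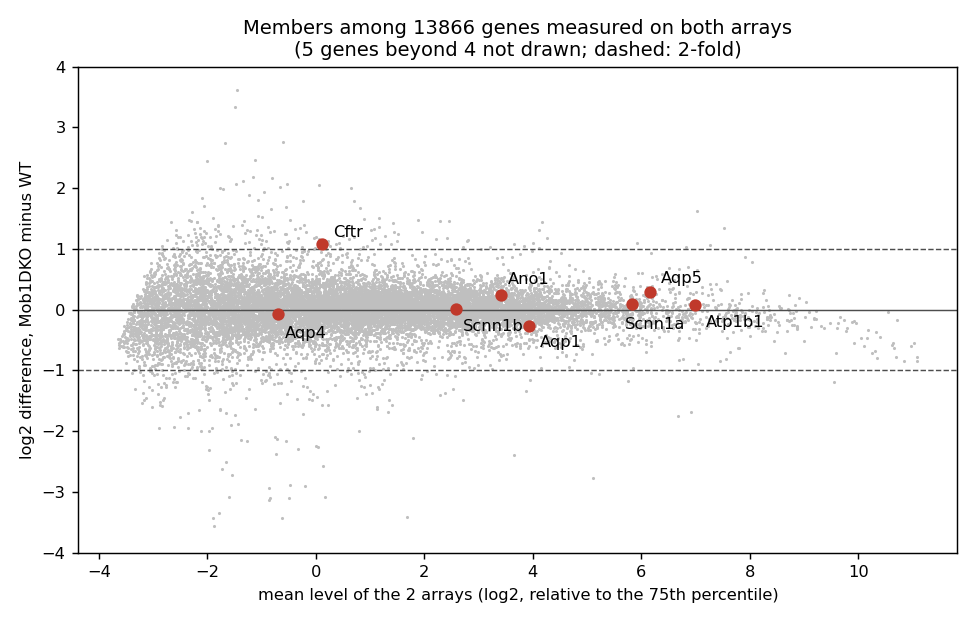
Log2 difference (Mob1DKO minus WT) against the mean level of both arrays for the 13866 genes well above background on both (grey), with the 8 measured members in red. Dashed lines mark 2-fold, and Cftr at 1.08 is the member past them. The 5 genes beyond 4 in size are not drawn.

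The water channels differed in both directions, each by under 2-fold. Aqp5 had signals of 23048 for Mob1DKO and 10081 for WT for the brighter probe, and 6092 and 2351 for the other. The levels were 6.31 and 6.02 for the first and 4.39 and 3.92 for the second, so both probes were higher on the Mob1DKO array. Their differences of 0.28 and 0.46 compare with a spot-to-spot SD of 0.05 and a software error of 0.20 for each. Over the 14 other settings the Aqp5 difference was 0.26 to 0.51 relative to the median of all genes, with the highest value under normexp. Of 10 alveolar type 1 genes, 9 were measured and none was called. Their median was 0.09 (0.29 under normexp), with 6 above 0, and their summed level was 6.42 for Mob1DKO and 6.22 for WT. The brightest, Emp2, Ager (the receptor RAGE) and Hopx, differed by 0.07, 0.42 and 0.43. Over the list the differences ran from −0.53 to 0.84, with 3 genes below 0. The alveolar type 2 median was −0.21, with 8 of 10 genes below 0, but −0.04 with quantile normalization, −0.05 in the value table and 0.01 under normexp. The part of cell composition in the Aqp5 value was not tested.

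Aqp1 was the lowest measured member. Its signals were 4031 and 2571, and the levels of 3.79 for Mob1DKO and 4.05 for WT gave a difference of −0.26. This was larger than the spot-to-spot SD of 0.05 and the software's error of 0.20. Under normexp the Aqp1 difference was −0.04, while the median of the 8 measured members moved from 0.08 to 0.30. Markers of cell types known for Aqp1 are given beside it. Of 10 endothelial genes 5 were measured, with a median of −0.15 (−0.34 to 0.03 over the other settings, relative to the median of all genes) and a summed level of 4.99 and 5.49. Cdh5, Cldn5, Tie1, Tek and Emcn were well above background on neither array. The receptor Kdr differed by −0.60 on its brighter probe and by 0.05 on a second, Esam by −0.15 and Egfl7 by 0.53. The fainter Pecam1 and Vwf, measured on both arrays and named after their values were seen, differed by 0.12 and −0.32. Of 10 red cell genes 7 were measured and 5, all globins, were lower. The alpha globins Hba-a2 and Hba-a1, measured on both arrays, differed by −3.42 and −3.10 on the log2 scale. For Hbb-bt, Hbb-b2 and Hbb-bs, measured on the WT array alone, the bounds were at least 19.4-fold, 5.78-fold and 3.23-fold. The summed level of all 7 measured red cell genes, which also counts those that are not globins, was 1.40 and 3.94. Of 5 mesothelial genes all were measured, with a median of −0.21 (−0.00094 under normexp). Msln differed by −0.25, Upk3b by −0.34 and Wt1 by 0.52. The part of these cells in the Aqp1 value was not tested.

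Aqp4 lay below the 75th percentile on both arrays and gave like values with both probes. The first had signals of 174 and 97.8 and levels of −0.74 and −0.66, and the second had signals of 165 and 90.7 and levels of −0.82 and −0.77. The differences of −0.08 and −0.04 lay within the spot-to-spot SDs of 0.21 and 0.22.

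Of 9 other water channels, 6 were measured, 1 was higher and 1 was lower. Aqp3, the water and glycerol channel of airway basal cells, was 2.06-fold lower, at 0.25 for Mob1DKO and 1.29 for WT, and −0.84 under normexp. Aqp6 was measured on the Mob1DKO array alone, where it was higher by at least 2.13-fold. Under normexp it differed by 0.08, and its second probe was above background on neither array. Basal cell genes had a median of −1.06 (−0.55 without outlier spots), with 3 of 6 lower: Krt5 was 7.43-fold, Krt17 5.94-fold and Krt15 2.96-fold lower. The part of basal cells in the Aqp3 value was not tested. Aqp5 lies between Aqp2 and Aqp6 on chromosome 15, and Aqp2 differed by −0.02.

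**Figure D3:**
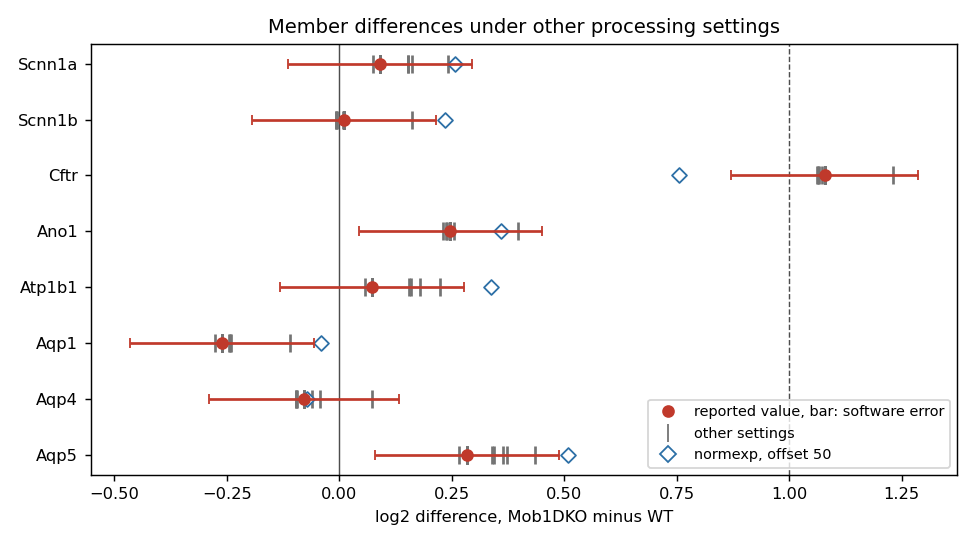
Log2 difference (Mob1DKO minus WT) of the 8 measured members as reported (red, with the scanner software's error as the bar) and under 13 other settings (grey ticks and blue diamonds; values without any scaling are left out, since they shift every gene by 0.91). Cftr is at 0.76 under normexp and past 2-fold in every other setting drawn, and Scnn1b and Aqp4 cross 0 between settings.

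Among 26 measured genes of 30 for chloride and bicarbonate transport, 2 were higher on the Mob1DKO array and none was lower. The list median was 0.16. Relative to the median of all genes this median stayed between 0.08 and 0.15 over the other settings. Gabrp, the pi subunit of the GABA-gated chloride channel, was 2.69-fold higher, at 2.13 for Mob1DKO and 0.70 for WT. It was past 2-fold in all 14 other settings, with 1.32 under normexp. Its 1 probe was well above background on both arrays, so background filters and probe rules could not move it. Slc4a4, a sodium bicarbonate cotransporter, was 2.12-fold higher, at 1.93 and 0.85. All 3 of its probes were measured on both arrays and differed by 1.08, 1.09 and 1.13, and the gene was at 0.98 under normexp. Slc12a2, the cotransporter that loads secretory cells with chloride and was named after its value was seen, differed by 0.16. With 1 spot per probe and 1 array per group, these values describe the pair of preparations.

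Of 9 other anoctamins, 4 were measured and none was called, with a median of −0.24, or −0.05 under normexp. Ano10 differed by −0.03 and the phospholipid scramblase Ano6 by −0.26. In the potassium channel list, whose products set the voltage for chloride secretion, 10 of 12 genes were measured and 1 was lower. Kcne3, a partner subunit of Kcnq1, was 2.97-fold lower from a faint signal, at −3.65 and −2.08, and was at −0.83 under normexp. A second Kcne3 probe, not well above background on the Mob1DKO array, was also lower there. The brightest genes of this list, Lrrc26 and Kcne2, differed by −0.77 and 0.20, and the list median was 0.11. Over all 6 lists, 74 of 93 genes were measured, of which 4.05% were higher and 5.41% lower on the Mob1DKO array, beside 3.79% and 2.91% of all measured genes.

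**Figure D4:**
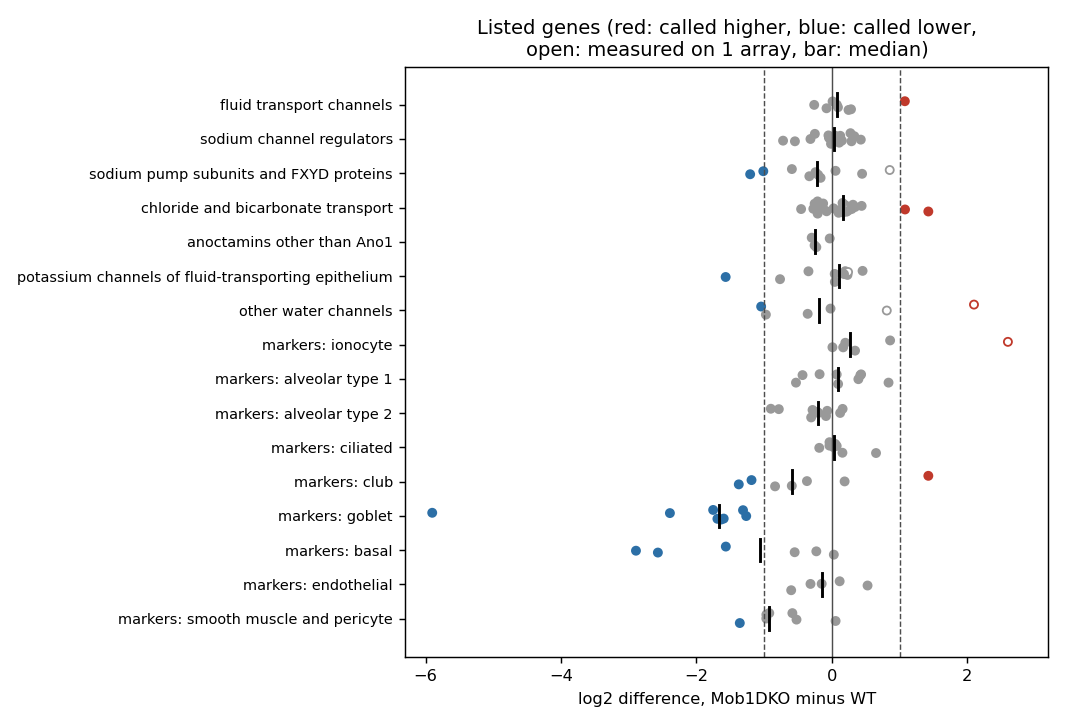
Log2 difference (Mob1DKO minus WT) of each measured gene of the fluid transport lists and of 9 cell type marker lists, with the list median as a black bar. Filled red and blue points were called higher and lower with both arrays measured, and open points were measured on 1 array. The goblet list lies wholly below −1, while the fluid transport channels lie around 0 apart from Cftr.

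Markers of airway cell types were read beside the channels. All 8 goblet cell genes were lower on the Mob1DKO array, with a median of −1.66 and a summed level of 7.07 and 8.97, led by Clca1 (59.9-fold), Tff2 (5.25-fold) and Muc5b (3.37-fold). The club cell median was −0.59, but −0.15 both with quantile normalization and in the series value table. Chad was 2.59-fold lower, and Gabrp, which is also in the chloride list, was higher. Scgb3a1 was 2.28-fold lower and past 2-fold in 9 of 14 other settings, with −0.87 under quantile normalization and −0.84 in the value table. Ciliated cell genes had a median of 0.04, with none of 8 called. The part of these cell types in the channel values was not tested.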

How the data were processed

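RNA of 1 Mob1DKO and 1 WT preparation was labelled with Cy3 and hybridised to 1-colour Agilent arrays on 1 slide. Per the file headers, the deposited scanner files were made with Feature Extraction 10.7.1.1 on a grid of build mm9, while version 9.5.1.1 is named in the submitters' processing notes. The processed signals in these scanner files are on a linear scale, background-subtracted within the array and not normalized between arrays. An alternative used the intensity values of the deposited series value table. That setting nearly repeats quantile normalization and is not a separate check. Cftr differed by 1.064 in the value table and 1.066 with quantile normalization, and the median of all genes was 0.0249 and 0.0251.

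Spots of a probe were averaged, log2 was taken and the 75th percentile over non-control probes subtracted. The median spike-in transcript was 2.50-fold brighter for WT, so the levels say nothing about RNA per cell. Of 28685 probes with a RefSeq accession, 27235 were named through RefSeq on GRCm38.p6. A gene was represented by its probe of highest mean level, leaving out probes above background on neither array where another was measured. Where the dimmer array was not well above background, the fold is a bound against the higher of the dim value and the lowest level well above background. No test was run, because groups of 1 array give no estimate of spread. The call rule was tested on simulated data, with planted differences well past 2-fold in genes above the 75th percentile. A call near 2-fold, such as that of Cftr, was not covered. R 4.3.3, limma 3.58.1, Python 3.11.15 and pandas 2.3.3 were used.

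Alternatives were scaling on the median, on housekeeping genes, by loess (span 0.3) or by quantiles, no scaling, normexp with an offset of 50, the value table, other filters on dim probes, other probe rules, removal of outlier spots, a floor, and a 1.5-fold threshold. Normexp used the median spot brightness in place of the mean. Text names all members, the called genes of each transport list (the 2 brightest where none or 1 was called), and up to 3 genes of a marker list, the called ones first. Exceptions are said to be named after their values were seen. Foxi1, Epcam, Nkx2-1, Xist, Ddx3y, Myh11 and Trp63 are such exceptions. The 5 called globins, Pecam1, Vwf and the endothelial genes that were not measured also go beyond the limit of 3 and were named after their values were seen. The members and lists were chosen with earlier results of these data known.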

Additional observations from a re-analysis of the deposited data

How the results depend on the processing

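The count of 1 called member (Cftr) held in 11 of the 14 settings and with a 1.5-fold threshold. The filters and probe rules among them left the Cftr value unchanged and are no check on it. It was 0 under normexp with an offset of 50, 3 without scaling (Cftr, Ano1 and Aqp5) and 2 without a filter on dim probes, which adds Scnn1g. The member median of 0.08 became 0.23 with housekeeping scaling, 0.16 with quantile normalization, 0.17 with loess, 0.15 in the series value table, 0.30 under normexp and 0.99 without scaling. Housekeeping scaling and no scaling shift every gene alike, and the median of all genes is then 0.17 and 0.93, so the member median relative to it stays at 0.06. The cause of the other shifts was not tested. No called member changed sign. No paired analysis was possible because each group has 1 sample, and no sample could be left out for the same reason. Faint probes limit Scnn1g, Aqp6, Kcne3 and the ionocyte genes.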

Other observations

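The protein-coding genes next to the channels were also looked up. Among 32 genes within 2 places of a member in the RefSeq table, not counting members, 22 were measured, 3 were called higher on the Mob1DKO array (Aqp6, Adcyap1r1 and Cdh2) and none was lower, beside 3.79% higher and 2.91% lower among all measured genes. Next to Cftr, Asz1, Cttnbp2 and Wnt2 were well above background on neither array, and Lsm8 differed by 0.48. Around Scnn1a, the receptor genes Ltbr and Tnfrsf1a differed by 0.31 and −0.08. These genes were chosen by position and not by their values.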
